A study of Mus musculus with 2 samples.

Results

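Accessible sites that lie in repeated sequence were examined in frontal cortex of 14-day-old female B6CASTF1/J mice, the F1 hybrid of C57BL/6J and a CAST strain. A site was included when at least 80% of its bases were soft-masked (written in lower case) in the mouse reference GRCm38 and its midpoint lay over 500 bp from every transcription start site (TSS) of GENCODE M21. The rule found 733 of 93641 peaks in replicate 1 and 512 of 66196 peaks in replicate 2, which were 1.08% and 1.16% of the distal peaks. They are called masked peaks here and are set against 37359 and 24823 unmasked distal peaks, none of whose bases are masked. The rule used sequence and position only, so signal, sharing and footprints were not used to choose members.

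Both libraries belong to 1 group, untreated as far as the labels say. They are numbered as biological replicates 1 and 2 and come from different biosamples under the same donor label. The labels carry the mark 3x without explaining it, so pooling of animals is not known, and differences between the libraries may include technical ones. With 2 libraries, the smallest two-sided p of an exact sign-flip permutation is 0.5, so no difference below carries a p-value. Values are given per library, and the 95% Wilson intervals cover counting error only. A peak lay within 500 bp of a TSS for 63.8% of 21911 protein-coding gene symbols in replicate 1 and 59.2% in replicate 2. Promoters of all 12 pan-neuronal genes had a peak in both libraries, whereas 2 and 2 of 10 muscle and heart genes and 1 and 1 of 10 blood and lymphoid genes did.

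Interspersed repeats are copies of mobile elements, such as the short B1 and B2 SINEs and the longer LINE and LTR elements, and tandem repeats include the satellite arrays beside mouse centromeres. Most copies are packed by DNA and histone methylation, and some copies carry sequences that transcription factors bind. Rodent B2 SINEs are known for carrying matches to the recognition sequence of CTCF, the zinc finger protein that marks insulators and loop anchors. DNase I cuts open chromatin, a peak marks a stretch with many cuts, and a footprint is a short stretch inside it with fewer cuts than its surroundings.

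The name of the set was checked against elements that RefSeq annotates. The mask covered 36.4% of the sequenced reference. It covered 94.9% of the annotated B1_Mus2 copy and 93.5% of Bc1, a retrotransposon-like RNA gene, but 36.4% of the LTR element LTRIS4, 11.2% of MuRRS4-int and 0% of both AmnSINE1 copies. Masked is therefore not the same as repeat-derived, and an unmasked peak can also derive from a repeat. Of the unmasked peaks, 60 in replicate 1 and 53 in replicate 2 matched tRNA genes, with median signals of 2.74 and 2.26. The masking program is not named in the sources used here.

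The sequences below were chosen because they hold the strongest masked peaks of both libraries, the most footprints, or the highest-ranked site with similarity to B1. They are the plus strand of GRCm38, 5′ to 3′, and capitals mark the footprints of replicate 1. The reference is C57BL/6J sequence, and CAST alleles are not shown.
chr9:3024361-3024620, the strongest masked peak: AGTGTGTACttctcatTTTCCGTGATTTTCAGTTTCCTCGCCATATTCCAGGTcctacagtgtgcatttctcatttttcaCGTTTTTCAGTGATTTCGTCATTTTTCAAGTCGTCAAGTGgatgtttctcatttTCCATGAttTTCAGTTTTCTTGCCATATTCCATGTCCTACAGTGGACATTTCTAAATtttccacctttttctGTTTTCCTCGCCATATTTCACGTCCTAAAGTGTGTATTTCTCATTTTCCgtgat
chr2:32487201-32487400, the strongest with mostly unique sequence: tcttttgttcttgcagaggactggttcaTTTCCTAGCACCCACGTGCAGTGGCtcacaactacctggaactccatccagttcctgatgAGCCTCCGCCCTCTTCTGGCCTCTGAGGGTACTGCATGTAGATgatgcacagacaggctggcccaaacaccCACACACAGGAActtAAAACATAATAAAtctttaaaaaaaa
chr14:93214861-93215160, with many footprints: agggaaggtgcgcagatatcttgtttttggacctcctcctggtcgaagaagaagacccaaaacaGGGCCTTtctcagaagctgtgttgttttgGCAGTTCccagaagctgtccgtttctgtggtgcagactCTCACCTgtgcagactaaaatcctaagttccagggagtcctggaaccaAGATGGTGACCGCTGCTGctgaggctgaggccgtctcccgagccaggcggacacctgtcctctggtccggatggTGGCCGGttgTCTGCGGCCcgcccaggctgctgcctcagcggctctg
chr11:3138453-3138554, the highest by mean rank of the sites similar to B1, in an intron of Sfi1: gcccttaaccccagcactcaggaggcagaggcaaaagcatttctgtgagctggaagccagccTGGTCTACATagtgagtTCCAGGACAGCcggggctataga

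Masked peaks were weaker than unmasked ones in both libraries. Peak signal, which the authors normalized for read depth, had a median of 0.308 (quartiles 0.188 and 0.496) at masked peaks of replicate 1, against 0.536 (0.375 and 0.857) at unmasked peaks. In replicate 2 the medians were 0.386 (0.240 and 0.611) at masked and 0.583 (0.420 and 0.926) at unmasked peaks. The masked-to-unmasked ratio of medians was 0.618 ± 0.061 (SD, n = 2 libraries), with the same direction in both. Signals came in units of 0.00670 (replicate 1) and 0.00858 (replicate 2), of which every peak's signal was a whole number (tolerance 0.05 units). The median masked peak was 46 and 45 units high, and the median unmasked peak 80 and 68. A signal above 1 was reached by 44 masked peaks (6.0%) in replicate 1 and 51 (9.96%) in replicate 2, against 20.1% and 22.1% of unmasked peaks.

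**Figure D1:**
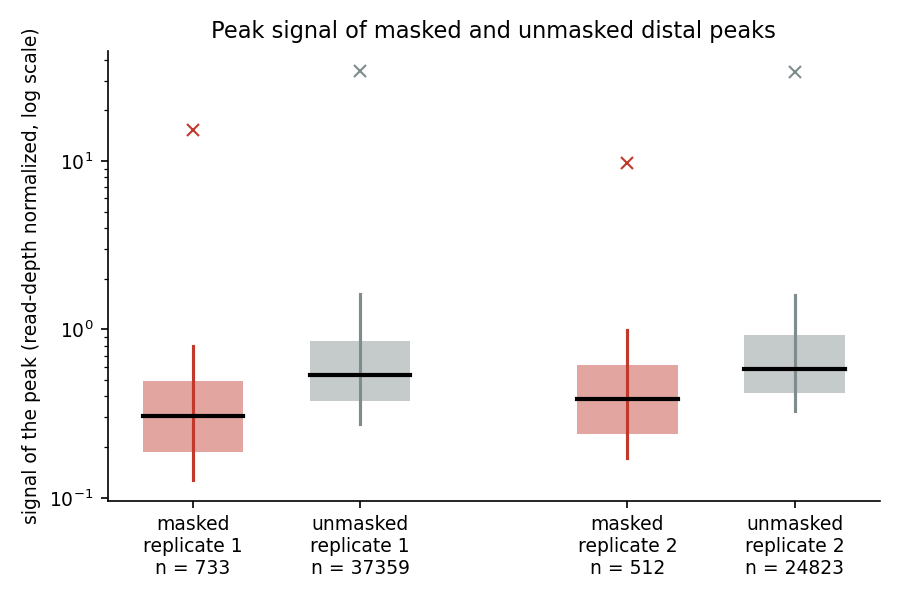
Signal of distal peaks (vertical log axis, read-depth normalized) for masked and unmasked peaks of each library, where bars span the quartiles, black lines are medians, thin lines run from the 10th to the 90th percentile and crosses are the highest peak. Medians were 0.308 and 0.386 at masked peaks, against 0.536 and 0.583 at unmasked ones.

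Masked peaks were also called less often in the other library. A replicate 2 peak overlapped 214 of 733 masked peaks of replicate 1 (29.2%, interval 26.0 to 32.6%), against 48.6% (48.0 to 49.1%) of unmasked peaks. A replicate 1 peak overlapped 237 of 512 masked peaks of replicate 2 (46.3%, 42.0 to 50.6%), against 80.3% (79.8 to 80.8%) of unmasked peaks. Over all peaks the shares were 59.1% in replicate 1 and 84.4% in replicate 2, so masked peaks lay below the background of their library. The difference was -19.4 percentage points in replicate 1 and -34.0 in replicate 2, a mean of -26.7 ± 10.4 (SD, n = 2).

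Strength moved with this difference. In a further comparison replicate 1 was cut to its strongest peaks, as many as replicate 2 has in all. The difference in sharing was then 1.51 percentage points in replicate 1, so its direction turned. In replicate 2, where no peak was left out, it was -35.3 against the shortened list of replicate 1, so this value is not one of strong peaks. Of masked peaks, 49.9% in replicate 1 and 45.5% in replicate 2 fell in the lowest decile of signal of their library, against 13.6% and 14.1% of unmasked peaks. With unmasked peaks reweighted to the masked peaks' deciles, the difference was 0.0187 percentage points in replicate 1 and -21.9 in replicate 2. In the lowest decile of replicate 2, 45 of 233 masked peaks were shared (19.3%, 14.8 to 24.9%), against 51.0% (49.3 to 52.7%) of unmasked ones. In the highest decile all 7 masked peaks of replicate 1 and all 8 of replicate 2 were shared, against 99.6% and 100% of unmasked peaks.

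**Figure D2:**
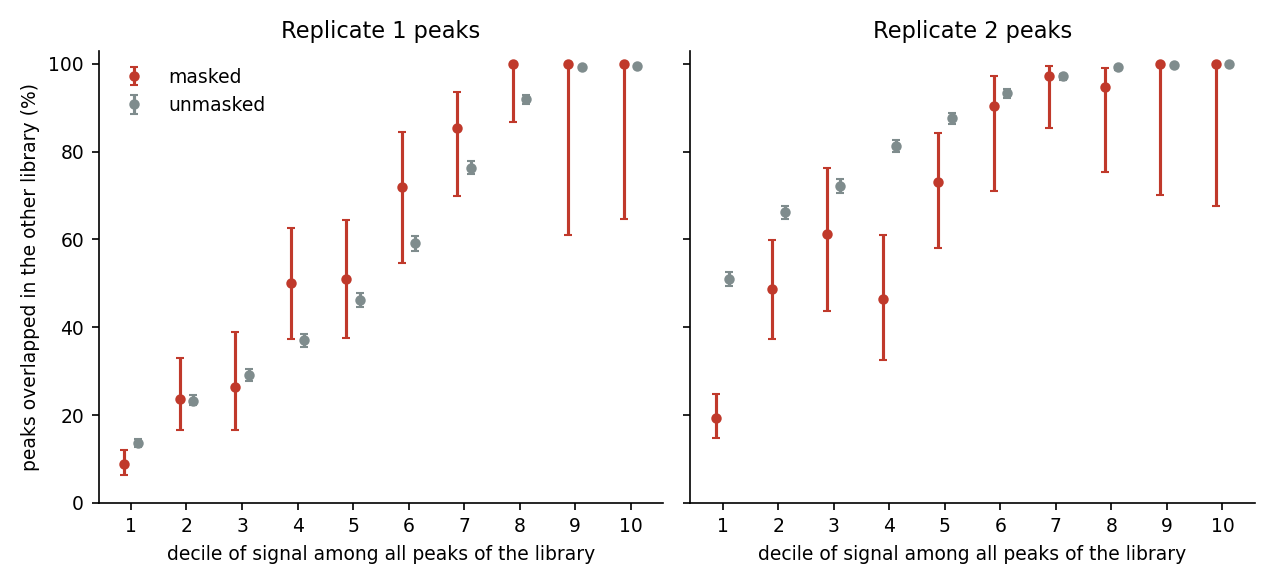
Share of peaks overlapped by a peak of the other library (vertical axis, %) in each decile of signal of the library (horizontal axis), for masked and unmasked distal peaks, with 95% Wilson intervals. In the lowest decile the shares were 8.74% at masked and 13.5% at unmasked peaks of replicate 1, and 19.3% and 51.0% in replicate 2.

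Where no peak was called in the other library, its deposited list of bases with a low false discovery rate (FDR, below 0.05) was consulted. Such bases lay in 25 of 519 unshared masked peaks of replicate 1 (4.82%) and 25 of 275 of replicate 2 (9.09%), against 10.2% and 26.7% of unshared unmasked peaks. Over all unshared peaks the shares were 12.2% and 36.1%.

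Footprints were found in 375 of 733 masked peaks of replicate 1 (51.2%, 47.5 to 54.8%), against 72.1% (71.6 to 72.5%) of unmasked peaks. In replicate 2 they were found in 256 of 512 masked peaks (50%, 45.7 to 54.3%), against 67.7% (67.1 to 68.3%) of unmasked ones. All peaks of the libraries held a footprint in 78.0% and 75.2% of cases, so masked peaks lay below this background too. Masked peaks were shorter, with median lengths of 116 and 104.5 bp, against 166 and 160 bp. Per kb of peak they held 7.13 and 7.49 footprints, against 9.26 and 8.69. At matched deciles of signal the difference in the share with a footprint changed sign, to 0.408 percentage points in replicate 1 and 1.80 in replicate 2. At matched deciles of length, a comparison added after the values were seen, it was -10.2 and -4.27 percentage points. The masked site with the highest mean footprint count over both libraries was chr9:3024361-3024620, printed above, with 6 in each.

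Along the masked share of distal peaks, sharing and footprints were highest at peaks with some masked bases, not at those with none. Peaks with above 0 and under 20% masked bases were shared in 64.2% and 90.1% of cases and held a footprint in 85% and 83.9%. They were also longer than unmasked peaks, with medians of 207 and 200 bp, against 166 and 160 bp. Their median signals were higher too, at 0.683 and 0.738, against 0.536 and 0.583. These groups were not compared at matched length or signal. Just outside the threshold, 160 and 139 peaks with 75 to 80% masked bases had median signals of 0.439 and 0.498 and were shared in 42.5% and 51.8% of cases. Just inside it, 126 and 114 peaks with 80 to 85% had 0.355 and 0.425 and were shared in 33.3% and 48.2%. The 288 and 191 peaks masked over their whole length had 0.268 and 0.309 and were shared in 24.0% and 41.9%.

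**Figure D3:**
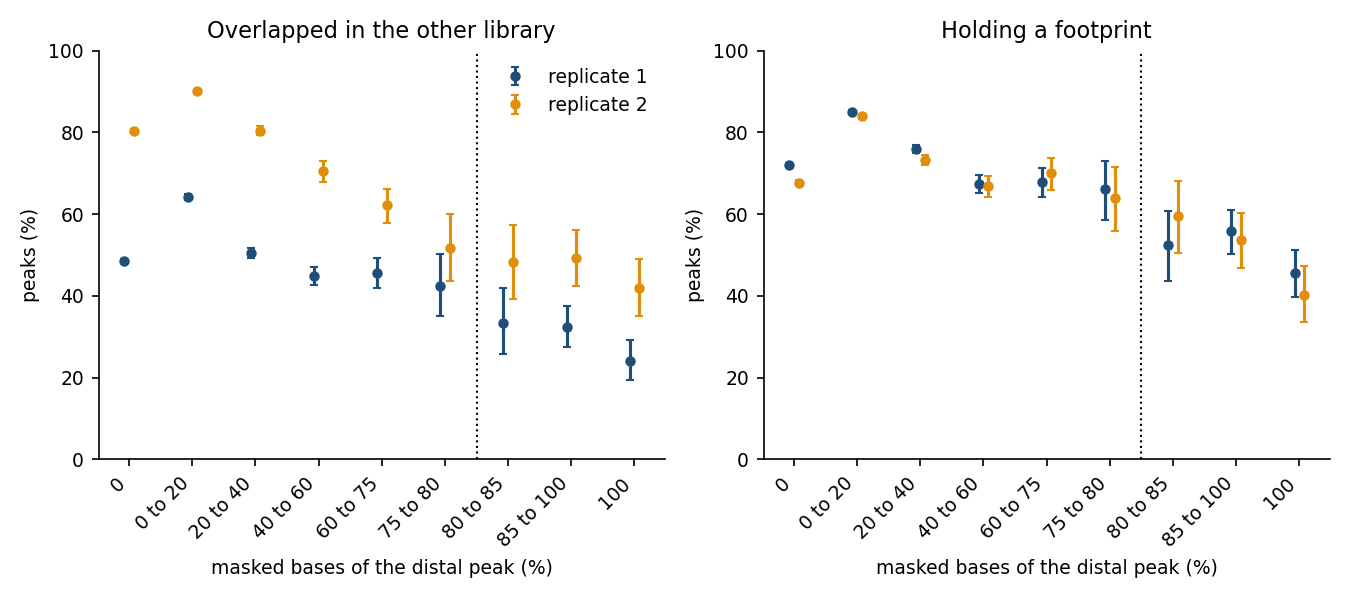
Share of distal peaks overlapped in the other library (left) and holding a footprint (right), both in %, by the masked share of the peak (horizontal axis), for each replicate with 95% Wilson intervals, where the dotted line is the threshold of 80%. Both shares were highest between 0 and 20% and lowest at 100% masked in replicates 1 and 2.

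Many masked peaks had sequence that occurs elsewhere in the reference. A median of 68.1% of their 32-base runs occurred once in the reference in replicate 1 and 75.1% in replicate 2, against 100% at unmasked peaks in both. Under 50% of these runs were unique in 286 masked peaks of replicate 1 (39.9%) and 178 of replicate 2 (36.0%), against 0.683% and 0.651% of unmasked peaks. No value exists for 17 and 18 masked peaks shorter than 32 bp. How reads that match several places were treated is not given in the sources used here, so the signal of such a peak cannot be assigned to that copy alone. Masked peaks with at least 90% unique runs, 230 in replicate 1 and 186 in replicate 2, had median signals of 0.408 and 0.472 and were shared in 40% (33.9 to 46.4%) and 53.2% (46.1 to 60.3%) of cases. Those with 10 to 90% had 0.268 and 0.334 and were shared in 22.1% (18.1 to 26.6%) and 38.0% (31.9 to 44.6%). Those under 10% had 0.254 and 0.317 and were shared in 32.8% (25 to 41.6%) and 54.0% (43.6 to 64.1%), so sharing did not follow uniqueness in order. Short tandem repeats of period 1 to 6 made up at least 50% of 17 masked peaks in replicate 1 and 9 in replicate 2.

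A masked peak of replicate 1 and a masked peak of replicate 2 overlapped at 176 sites. Their signals had a Spearman rho of 0.915 between libraries over these sites, given as a description, since sites share their libraries. Over merged regions called in both libraries, the signal of replicate 1 divided by that of replicate 2 had a median of 0.937 at 195 masked regions, against 1.17 at 15902 unmasked ones. It exceeded 1 at 41.0% of masked and 73.7% of unmasked regions. No error between libraries exists for this ratio, since each region gives 1 value.

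The 4 strongest masked peaks in both libraries lay close together at the start of the assembled part of chromosome 9. The peak at chr9:3024361-3024620, in an annotated coding exon 926 bp from a TSS of Gm10717, had a signal of 15.3 in replicate 1 and 9.73 in replicate 2. The peak at chr9:3002041-3002220 had 13.8 and 7.22, the peak at chr9:3006701-3006940 had 12.4 and 9.34, and the peak at chr9:3024021-3024260 had 9.60 and 7.17. All 4 were stronger in replicate 1, as were 72 of the 176 sites, and 0% of their 32-base runs were unique. The stretch chr9:3002041-3029860 held 15 peaks in each library, of which 7 and 7 were masked peaks and all 7 were called in both. These 7 made up 16.5% of the summed masked-peak signal of replicate 1 and 12.9% in replicate 2. Identical 20-base runs in this stretch were most often 234 bp apart (16.0% of successive pairs). A monomer of that length is known for the mouse major satellite, the tandem repeat beside centromeres.

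The strongest masked site with mostly unique sequence was chr2:32487201-32487400, with a signal of 3.97 in replicate 1 and 4.31 in replicate 2 and 98.8% unique runs. It was intergenic, 687 bp from the TSS of Gm37169, and the nearest protein-coding TSS, that of the mitochondrial carrier gene Slc25a25, was 35856 bp away. It held 4 footprints in replicate 1 and 3 in replicate 2. The site chr14:93214861-93215160 had 2.52 and 2.94, with 6 and 5 footprints, 11.9% unique runs and a median of 351 reference copies of its runs in the peak of replicate 1 and 161 in the peak of replicate 2. The site at chr4:143987461-143987800 in replicate 1, 6738 bp from a TSS of Pramef17, had a signal of 1.05 with 4 footprints, and the overlapping peak of replicate 2, which ran on to base 143987960, had 1.60 with 7. Of its runs, 0% were unique in replicate 1 and 1.28% in replicate 2, with medians of 560 and 561 reference copies. These 3 sites were stronger in replicate 2, the opposite direction to the peaks on chromosome 9.

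**Figure D4:**
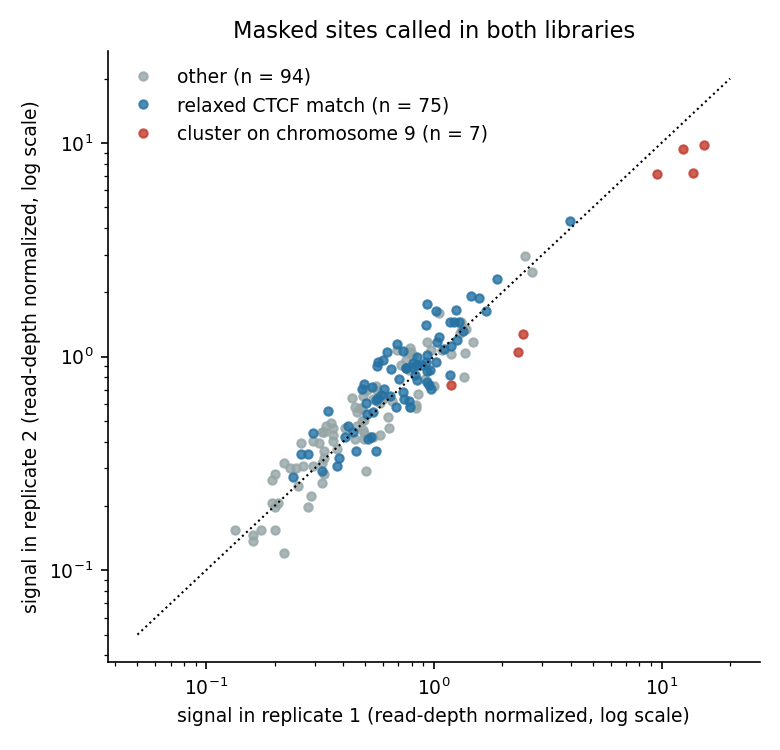
Signal in replicate 1 (horizontal) and replicate 2 (vertical), both read-depth normalized and on log axes, of the 176 masked sites called in both libraries, where the dotted line marks equal signals. The 7 sites of the stretch on chromosome 9 reach 15.3 and 9.73 and lie on the replicate 1 side, and 75 sites that hold a relaxed CTCF match reach 3.97 and 4.31.

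Among masked peaks without a peak in the other library, the strongest of replicate 1 had signals of 1.02 at chr10:127122821-127123080 (1820 bp from a TSS of Os9), 0.971 at chr4:155297249-155297358 (intron, nearest TSS of Prkcz) and 0.931 at chr13:54378214-54378301 (intron, nearest TSS of Cplx2, a synaptic vesicle gene). The strongest of replicate 2 had 1.13 at chr4:82512849-82513005, 1.03 at chr5:135799872-135800060 (nearest TSS of Srrm3) and 0.772 at chr14:54867141-54867260 (nearest TSS of Homez). They were far weaker than the strongest shared sites. The distance to the nearest peak of the other library was 540, 1048 and 5198 bp for replicate 1 and 175, 5051 and 2820 bp for replicate 2.

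Chromosomes X and Y held more of the masked than of the unmasked peaks. The mask covers 46.8% of the sequenced bases of X and 96.3% of Y, against 36.4% of the reference. How far a definition by masking bears on the excess was not tested. Chromosome X held 6.41% and 7.62% of masked peaks, against 2.02% and 2.17% of unmasked peaks. Chromosome Y, which the labelled females lack, had 40 peaks in replicate 1 and 28 in replicate 2, of which 18 and 5 were masked peaks, against 2 and 1 unmasked ones. The masked peaks on Y had signals of 0.0536 to 0.804 in replicate 1 and 0.403 to 0.695 in replicate 2. Their unique runs had a median of 11.7% (highest 36.7%) in replicate 1 and 0% (highest 83.5%) in replicate 2. Without chromosomes X and Y, a comparison added after the values were seen, sharing differed by -18.4 percentage points in replicate 1 and -32.3 in replicate 2.

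Recurrent sequence was sought among the 176 sites as runs of 30 bases, leaving out low-complexity runs. The run in most sites lay in 6 sites on 3 chromosomes, and the next in 5 sites of the stretch on chromosome 9. The 8 runs that were chosen, each in the sites left by those before it, are shown because they carry the copies that open sites share. Run 3 was in 4 sites, runs 4 and 5 in 3 each and the others in 2 each.
run 1, at chr14:93215081-93215110: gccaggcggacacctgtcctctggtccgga
run 2, at chr9:3024418-3024447, minus strand: aaaaacgtgaaaaatgagaaatgcacactg
run 3, at chr10:99339453-99339482: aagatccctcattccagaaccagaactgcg
run 4, at chr4:143985853-143985882: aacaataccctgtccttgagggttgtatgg
run 5, at chr4:143987769-143987798: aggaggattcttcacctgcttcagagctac
run 6, at chr7:33982489-33982518: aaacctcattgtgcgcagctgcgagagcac
run 7, at chr4:133918546-133918575: aaagagacagtaaggctctcggtaaagaga
run 8, at chr7:39655267-39655296, minus strand: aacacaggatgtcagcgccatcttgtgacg

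Most of these runs had few of their copies under a peak. Run 1 had 2042 copies in the reference, of which 6 lay under a peak in replicate 1 and 7 in replicate 2. Run 2 had 94 copies, with 10 and 11 under a peak, and run 3 had 1337, with 5 and 4. Run 4 had 1598 copies with 4 and 3 under a peak, and run 5 had 169 with 3 and 3. Run 6 had 18 copies with 11 and 8 under a peak, and run 7 had 9 copies with 7 and 7. Every run was chosen for lying in sites called in both libraries, which by itself raises the share for runs of few copies. How this share relates to copy number was not tested. Run 8 had 1189 copies, with 11 and 5 under a peak. Copies were counted over the assembled chromosomes only, so any on unplaced sequence are not in these numbers. How reads that match several copies were placed is not known, so a copy without a peak cannot be called closed.

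Similarity to the B1_Mus2 copy (blastn, e-value at most 1e-05) was found in 61 masked peaks of replicate 1 (8.32%, 6.53 to 10.6%) and 31 of replicate 2 (6.05%, 4.30 to 8.47%). No unmasked peak matched it in either library, which the definition of that class largely fixes, since 94.9% of the copy is masked. Their median signals were 0.288 and 0.369, with a median identity of 86.8% and 87.0%. A peak of the other library overlapped 14.8% of them in replicate 1 and 45.2% in replicate 2. The site in Sfi1, a centrosome gene, had 0.911 in replicate 1 and 0.789 in replicate 2, with 2 footprints in each. Other matches were to tRNA genes (3 masked peaks in replicate 1 and 1 in replicate 2) and, in replicate 1, to Bc1 (2), 7S RNA (1), rRNA (1) and LTRIS4 (1). The remaining 664 and 480 masked peaks matched none of the elements searched, which include no annotated B2, LINE or IAP copy.

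Transcription factor consensus sequences were searched on both strands in footprints with 5 bp on each side, 670 in masked peaks of replicate 1 and 464 in replicate 2. Of 31 sequences, 2 occurred in at least 20 of these footprints, a threshold that leaves out sequences rare in masked peaks. Among those left out, the CAGCTG E-box lay in 3 and 4 footprints (0.448% and 0.862%), against 2.76% and 2.30% in unmasked peaks. The CACCC box went the other way, in 4 and 2 (0.597% and 0.431%), against 0.209% and 0.193%. The neurogenic E-box (CAGATG or CATATG), bound by neuronal bHLH dimers, lay in 34 footprints of replicate 1 (5.07%, 3.65 to 7.01%) and 17 of replicate 2 (3.66%, 2.30 to 5.79%), against 3.68% and 3.27% of footprints in unmasked peaks. The CCAAT box (CCAAT), bound by NF-Y, lay in 21 (3.13%, 2.06 to 4.74%) and 9 (1.94%, 1.02 to 3.65%), against 2.53% and 2.78%, so its direction differed between libraries. Footprints of all peaks held the E-box in 2.47% and 2.05% of cases and the CCAAT box in 2.97% and 3.30%. Windows of 150 bp around peak midpoints held the E-box in 26.7% and 29.5% of masked peaks, against 20.6% and 19.2% of unmasked peaks and 17.0% and 15.4% of all peaks. They held the CCAAT box in 23.7% and 20.3% of masked peaks, against 16.8% and 17.4% of unmasked peaks and 17.7% and 18.5% of all peaks. How dense these sequences are in masked reference sequence was not measured.

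The CTCF consensus gave opposite directions depending on a single position. As searched, it lay in 8 footprints of masked peaks in each library (1.19%, 0.606 to 2.34%, and 1.72%, 0.876 to 3.36%), against 3.44% and 5.09% of footprints in unmasked peaks. Windows of 150 bp held it in 1.77% and 2.54% of masked and 6.05% and 8.53% of unmasked peaks, and in 5.09% and 6.63% of all peaks. Runs of 20 bases showed why the search was widened: a pair of such runs, each in 5 of the 176 sites on 5 chromosomes, share a stretch of 14 bases that matches the CTCF consensus except at position 5, counted from the 5′ end of its CCA strand.
shared stretch: tgccctcttctggc

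With any base allowed at position 5, a search chosen after these values were seen, the consensus lay in 144 masked peaks of replicate 1 (19.6%, 16.9 to 22.7%) and 124 of replicate 2 (24.2%, 20.7 to 28.1%), against 7.69% (7.42 to 7.96%) and 10.8% (10.4 to 11.2%) of unmasked peaks. In footprints the shares were 13.6% (11.2 to 16.4%) and 17.5% (14.3 to 21.2%) in masked peaks, against 4.35% and 6.42% in unmasked peaks. Over all distal peaks the match lay in 9.57% and 13.6%. A footprint touched the match in 107 of the 144 (74.3%) and 100 of the 124 (80.6%) masked peaks, a smaller share than the 92.9% and 90.6% of unmasked peaks with the match. Position 5 was relaxed because of runs that recur among masked sites, so the excess in masked peaks is partly fixed by that choice. The relaxed consensus is itself denser in masked reference sequence, with 57.5 matches per Mb, against 6.95 per Mb of unmasked sequence. Masked peaks held 1533 and 2003 matches per Mb, and unmasked peaks 455 and 670 per Mb. The shared stretch lay in 55 (7.50%) and 52 (10.2%) masked peaks, and in 375 (0.550%) and 357 (0.806%) of all distal peaks, so most peaks that hold it are partly masked peaks below the threshold. It lay in 0 unmasked peaks, as the definition of that class fixes, since all of its 7896 reference copies lie in masked sequence.

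Masked peaks with the relaxed match had higher signals and were more often shared than those without it. The search was widened from runs that recur among sites called in both libraries, so its relation to sharing is partly fixed by that choice and is given as a description. Their median signals were 0.556 in replicate 1 and 0.660 in replicate 2, against 0.261 and 0.317 at the other masked peaks. The other library had a peak at 60.4% (52.3 to 68%) and 70.2% (61.6 to 77.5%) of them, against 21.6% (18.4 to 25.1%) and 38.7% (34.0 to 43.6%) of the other masked peaks. Unmasked peaks with the match were stronger still, at 1.39 and 1.22, and were shared in 89.7% and 96.7% of cases. Of the 176 sites of both libraries, 75 (42.6%) held the match, with a median of 96.1% unique runs. The site on chr2 printed above is the strongest of them. The next in rank follow, with the match in capitals.
chr15:99469181-99469340, intergenic, signals 1.90 and 2.30: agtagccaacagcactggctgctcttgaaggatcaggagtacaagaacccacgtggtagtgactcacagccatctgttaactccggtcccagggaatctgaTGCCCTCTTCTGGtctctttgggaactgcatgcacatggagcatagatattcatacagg
chr7:19284861-19285060, intron near the TSS of Rtn2, signals 1.59 and 1.87: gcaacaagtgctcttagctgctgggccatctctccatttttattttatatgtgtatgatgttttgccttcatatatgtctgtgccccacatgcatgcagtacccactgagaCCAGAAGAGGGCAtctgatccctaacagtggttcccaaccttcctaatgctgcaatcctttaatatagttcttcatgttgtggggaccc
The match at chr15 reads on the minus strand and that at chr7 on the plus strand of the consensus.

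**Figure D5:**
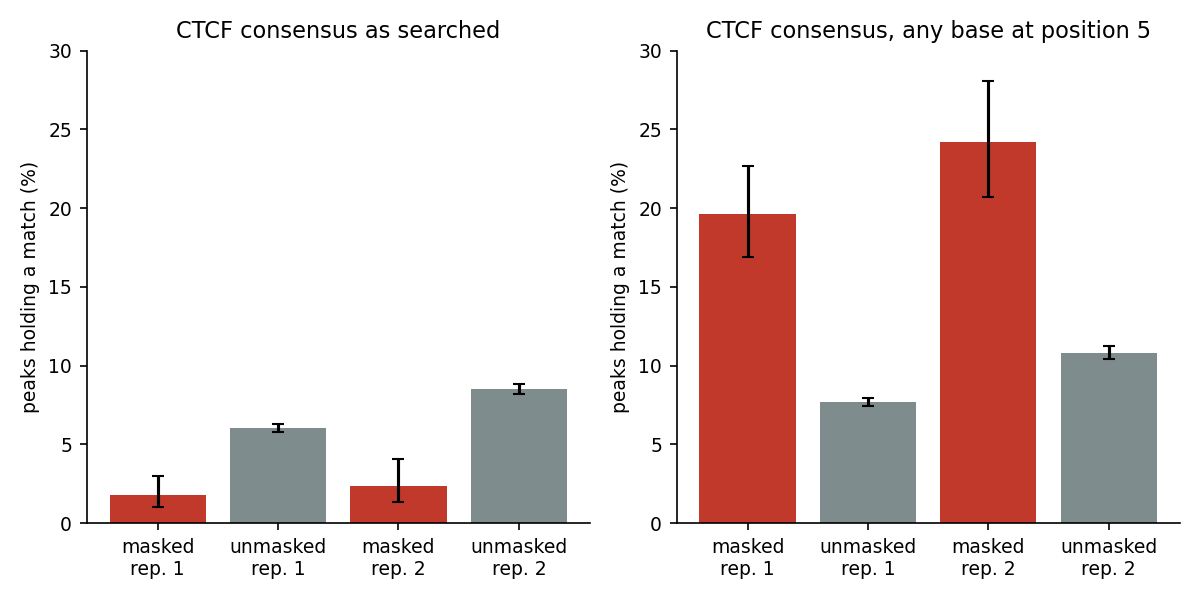
Share of distal peaks (vertical axis, %) that hold the CTCF consensus as searched (left) or with any base at position 5 (right), for masked and unmasked peaks of each replicate with 95% Wilson intervals. Masked peaks lie below unmasked ones on the left (1.77% and 2.34%, against 6.03% and 8.51%) and above them on the right (19.6% and 24.2%, against 7.69% and 10.8%). The search on the right was widened from runs that recur among masked sites, so its excess at masked peaks is partly fixed by that choice.

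Position relative to genes differed in kind more than in distance. The median distance to the nearest TSS was 10779 and 9646 bp for masked peaks, against 10666 and 9999 bp for unmasked ones, a ratio of 0.988 ± 0.032 (SD, n = 2) whose direction differed between libraries. Beyond 50 kb from any TSS lay 115 (15.7%) and 69 (13.5%) masked peaks, against 13.6% and 12.9% of unmasked ones. Masked peaks were intergenic in 56.1% and 60.5% of cases, against 42.2% and 43.3%, and intronic in 41.3% and 35.7%, against 47.8% and 47.1%. Coding exons held 2 masked peaks in replicate 1 and 3 in replicate 2 (0.273% and 0.586%), against 4.76% and 4.22% of unmasked peaks. Median GC content was 50.8% and 50%, against 52.2% and 52.0%, and CpG dinucleotides numbered 1.65 and 1.61 per 100 bp, against 2.63 and 2.69.

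Within gene bodies and 10 kb on each side, 460 of 21938 protein-coding genes had a masked peak in replicate 1 (2.10%) and 332 in replicate 2 (1.51%), with 143 in both. The genes with most were Gm10717, Gm10718, Gm10719 and Gm10720, predicted genes in the stretch on chromosome 9 with 4 masked peaks each per library, mostly the same peaks, since their windows overlap, and Pramef17, of the PRAME family, with 4 in each. All 4 peaks near Pramef17 were fully masked and called in both libraries, with signals of 0.435 to 1.33 in replicate 1 and 0.643 to 1.60 in replicate 2. By contrast Hif3a, a hypoxia-inducible factor gene singled out after its values were seen, had 6 masked peaks in replicate 1 and 0 in replicate 2. Those 6 had signals of 0.100 to 0.241 and no footprint, and its window held 31 peaks in replicate 1 and 7 in replicate 2.

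Of 158 genes in 14 lists (cell types of the cortex, activity-regulated, other tissues, housekeeping and repeat silencing), 2 had a masked peak in replicate 1 and 4 in replicate 2 (2.10% and 1.51% of all protein-coding genes did). The gene with a masked peak in both was Chd4, which encodes a chromatin remodeller. Its intronic peak at chr6:125111001-125111178 had a signal of 0.931 in replicate 1, and the overlapping peak of replicate 2 had 0.858. Single masked peaks lay at Chaf1a in replicate 1 (0.589) and at Atrx (0.652), Lhfpl3 (0.386) and Foxp2 (0.189) in replicate 2. With 50 kb on each side, 8 of the 158 genes in each library had a masked peak (5.11% and 3.64% of all protein-coding genes did). In each library, 6 of the 158 were the nearest protein-coding gene to one (2.92% and 2.11% of all were). Of these 6, 2 in replicate 1 and 3 in replicate 2 were repeat silencing genes. The others were pan-neuronal, astrocyte and endothelial genes in replicate 1. In replicate 2 they were excitatory neuron, interneuron and oligodendrocyte precursor genes.

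Most promoters of genes that silence repeats were open, as were those of the housekeeping genes. A promoter peak was present for all 25 listed genes in replicate 1 and for 24 in replicate 2, against the 63.8% and 59.2% of all protein-coding genes given above, and for 10 of 10 housekeeping genes in both libraries. In replicate 2 Dnmt3a, a de novo DNA methyltransferase, had none. The strongest were Zfp809, a zinc finger gene that targets retroviral sequences, with 8.73 in replicate 1 and 6.86 in replicate 2, Mphosph8 of the HUSH complex with 9.76 and 4.56, and Cbx5, which encodes a heterochromatin protein, with 6.26 and 4.12. These promoter signals say nothing of protein activity.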

How the data were processed

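DNase-seq peaks and footprints of 2 libraries were analysed. Per the deposited notes, the authors called them in each library from its own mm10 alignments, and gave each peak a signal normalized for read depth. Footprint lists carry positions only, and the deposited FDR lists hold values on a p-value scale, all below 0.05. Aligner, callers, thresholds and read counts are not stated in those notes, so depth is unknown. The longer peak list of each library was used.

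Coordinates were compared with GRCm38 (637989 intervals, 0 past a chromosome end). Masked share came from lower-case bases of the RefSeq FASTA, and TSSs from GENCODE M21. Shared means an overlap of at least 1 bp. Footprints count when wholly inside a peak. Runs of 32 bases were counted over the assembled chromosomes on both strands, and low-complexity runs (under 14 distinct 3-base words) were left out of the recurrent runs. Tools were numpy 2.4.6, pandas 2.3.3, scipy 1.17.1, numba 0.67.0, bedtools 2.31.1 and blastn 2.17.0, with functions tested on simulated data. Named sites were the 5 strongest by mean rank, the 3 strongest of each library alone and the 3 with most footprints (ties by mean rank). Named genes were the 5 with most masked peaks, the leading gene of each list and the 3 strongest silencing promoters. Members and lists were chosen with earlier results of these data known. No sequence of chromosome 18 is printed.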

Additional observations from a re-analysis of the deposited data

How the results depend on the processing

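Of 74 alternatives tried, 42 stayed within the spread, 30 moved and 2 were labelled as changed in direction. The spread was the SD of the 2 libraries, a fixed fold limit for counts, and an interval over regions for the ratio between libraries. Where the SD was used, leaving out a replicate could not move a result. The TSS distance ratio was left out of the direction label. It was 1.06 at 100% masked and 1.01 without replicate 2, against 0.988, so its direction turned there too. Values are means over libraries, masked relative to unmasked. At 50% masked or more there were 2014 masked peaks per library, sharing differed by -15.7 percentage points, footprint share by -7.47, the signal ratio was 0.808 and the TSS distance ratio 0.880. At 100% these were 239.5 peaks, footprint share -27.0, signal ratio 0.515 and distance ratio 1.06. In the stricter list they were 219.5 peaks, sharing -13.7, signal ratio 0.696, footprint share -13.7, distance ratio 0.842 and a ratio between libraries of 0.749 relative to unmasked regions (0.800 in the longer list). Over 2000 bp from every TSS, footprint share was -22.9 and distance ratio 0.885. Without members under 50% unique, there were 390.5 peaks, with footprint share -16.5 and distance ratio 0.891. Against all distal peaks under 80% masked, footprint share was -24.0. At matched deciles of signal, sharing was -10.9, footprint share 1.10 (direction changed) and the signal ratio 1.00 by construction; at matched deciles of length footprint share was -7.24, and per kb the difference was -1.66 footprints. The CTCF footprint ratio was 0.321 with no flank, 0.421 with 10 bp, 0.295 in 150 bp windows and 2.92 (direction changed) with any base at position 5, against 0.343. List genes with a masked peak numbered 8 with 50 kb and 6 by nearest TSS, against 3. Matching on length, any base at position 5, and leaving out the stretch on chromosome 9 (sharing -27.4) or chromosomes X and Y (sharing -25.4) were chosen after seeing the data. The causes were not tested. Leaving out a replicate gave 512 to 733 peaks, sharing of -34.0 to -19.4, signal ratios of 0.575 to 0.662, footprint shares of -20.9 to -17.7, distance ratios of 0.965 to 1.01 and unique runs of 68.1 to 75.1%. No paired analysis was possible because the series has 1 group. With 2 libraries and no read counts, no limit of detection is given, since the Wilson intervals cover counting error only.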
